A study of Mus musculus with 6 samples.

Results

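The 10 genes described here encode the calcium-handling apparatus of the sarcoplasmic reticulum in muscle fibers and were chosen by symbol as Ryr1, Cacna1s, Atp2a1, Atp2a2, Casq1, Asph, Trdn, Jph1, Jph2 and Pvalb. All 10 were found among the 24062 genes of the count table, and all 10 were among the 1682 genes with enough counts to be tested for a difference between E2 and vehicle. The release channel Ryr1, the storage genes Casq1, Asph and Trdn and the junctophilins Jph1 and Jph2 had E2 means at 40.2% to 55.2% of the vehicle mean. For Casq1, Asph and Trdn this rests largely on vehicle replicates 1 and 2. With vehicle replicate 3 as the only vehicle library, their log2 fold changes were -0.06, -0.28 and -0.27. Those of Ryr1, Jph1 and Jph2 were then -0.77, -1.50 and -0.73. The voltage sensor Cacna1s, which acts in release as well, and the calcium pumps Atp2a1 and Atp2a2 stood at 97.8% to 125% of the vehicle mean, and the cytosolic buffer Pvalb at 81.5%. None of the 10 genes passed the adjustment for multiple testing in either direction.

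The RNA came from female GFP-L10aEC mice, in which a VECad-Cre transgene removes a stop codon in front of GFP-Rpl10a at the Rosa26 locus, so that endothelial cells carry a GFP-tagged ribosomal protein L10a. Anti-GFP immunoprecipitation from homogenized gastrocnemius and soleus muscle (translating ribosome affinity purification, TRAP) then retrieves tagged ribosomes with their RNA. There were 3 libraries from mice with vehicle (placebo) pellets and 3 from mice with estradiol (E2) pellets, each left in place for 4 weeks, and both groups were ovariectomized. The sample labels state an age of 4 weeks, whereas ovariectomy is described at 6 weeks of age. Each library carries the numbers of 2 mice, and no source used here says whether their RNA was pooled. The replicate in every comparison is therefore the library, and a p-value measures the spread between libraries only.

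In a skeletal muscle fiber, an action potential enters the transverse tubule and moves the voltage sensor of the tubular membrane, the dihydropyridine receptor. This sensor opens the ryanodine receptor of the adjoining sarcoplasmic reticulum, and calcium leaves the store for the myofilaments. Junctophilins hold both membranes together at the triad, triadin and junctin tie the release channel to the calcium-binding protein calsequestrin inside the store, and the SERCA pumps return calcium to the store. Parvalbumin buffers calcium in the cytosol of fast fibers. Most of these genes are markers of muscle fibers rather than of endothelium, and the values below are read as levels in the TRAP RNA, without an assignment to a cell type.

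The libraries held between 84823 counts (vehicle replicate 3) and 451034 counts (vehicle replicate 2), of which the ribosomal RNA gene Rn45s took 28.5% to 42.9%. Levels are given as CPM, the usual depth-scaled unit in which each library sums to 1e+06, and 1 count corresponds to between 2.22 and 11.8 CPM. Vehicle replicates 1 and 2 resembled each other (Pearson's r of log2(CPM + 1) across the genes tested 0.949) more than vehicle replicate 3 (0.569 and 0.575), whose r with the E2 libraries was 0.676 to 0.768. Y-linked transcripts had 40 and 63 counts in vehicle replicates 1 and 2 and 0 in each other library, although all mice are described as female. Xist, the transcript of the inactive X chromosome in female cells, had 3.46 and 2.22 CPM in vehicle replicates 1 and 2, 35.4 CPM in vehicle replicate 3 and 44.8 to 85.6 CPM in the E2 libraries. These sex-linked transcripts set vehicle replicates 1 and 2 apart from vehicle replicate 3 and from the E2 libraries. What part sex has in the differences between E2 and vehicle was not tested. Results are therefore also given without vehicle replicate 3 and without vehicle replicates 1 and 2.

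All 18 fiber markers listed had counts, and together they took 7.26% to 11.2% of all counts with vehicle and 7.08% to 9.39% with E2. Of these markers, Tnnc2 had a mean of 15104 CPM with vehicle and 35947 CPM with E2, while 13 of the 18 had a fold change below 0. Similar sums therefore do not mean that the other markers were level. The 16 endothelial markers took 0.0271% to 0.0920% with vehicle and 0.0143% to 0.0647% with E2. None of these was at 0 in every library, but 5 had fewer than 10 counts in all, among them Cldn5 and Sox18 with 2 counts each. Of the endothelial markers 3 could be tested, and none passed the adjusted threshold (edgeR quasi-likelihood). Cdh5, the VE-cadherin gene, had the most counts of these 3 and a log2 fold change of 0.13 (BH-adjusted p = 0.906), Egfl7 had -0.80 (0.441), and the VEGF receptor gene Kdr, with 0 counts in vehicle replicate 3, had -2.22 (0.0764). The 7 smooth muscle and pericyte markers summed to 675, 470 and 118 CPM with vehicle and 230, 212 and 229 CPM with E2, and the only one tested, the smooth muscle myosin Myh11, had a log2 fold change of -1.32 (BH-adjusted p = 0.141). What part these cell types have in the differences below was not tested. The labelled cell type was marked weakly, and transcripts of muscle fibers were far more abundant. The 10 calcium-handling genes together took 0.929% to 0.946% of the counts with vehicle and 0.748% to 0.926% with E2. In RNA of a whole tissue or of a pull-down from it, fewer cells of a type and less RNA per cell cannot be told apart.

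**Figure D1:**
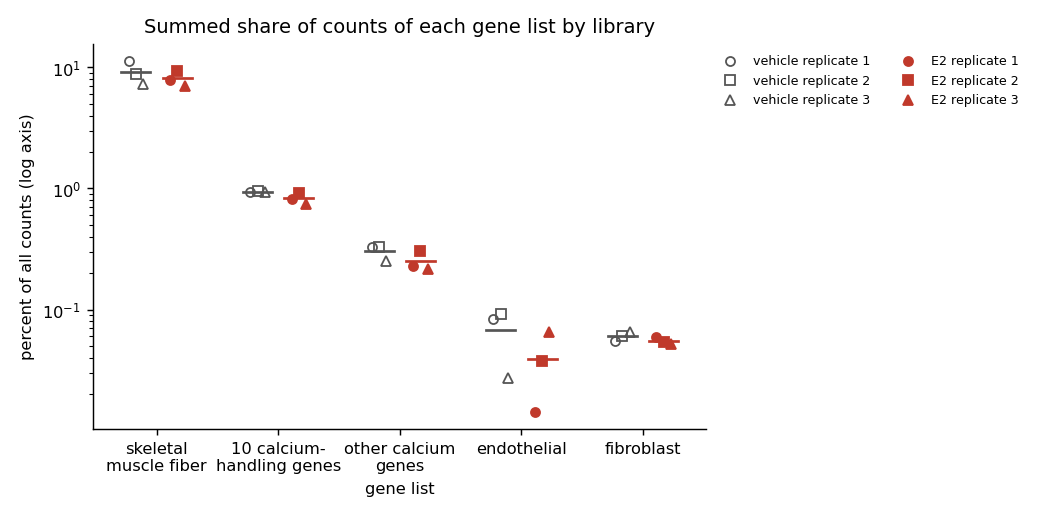
Percent of all counts (log axis) taken by the fiber markers, the 10 calcium-handling genes, the other calcium genes, the endothelial markers and the fibroblast markers in each library. Points are libraries (open for vehicle, filled for E2) and lines are group means. Fiber markers lie between 7.08% and 11.2% in every library, and endothelial markers reach at most 0.0920%.

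The comparison asked whether 4 weeks of E2 changed the ribosome-associated RNA of each gene. It was made with the quasi-likelihood test of edgeR across all 1682 genes, with TMM scaling (trimmed mean of M values, which corrects library totals for differences in composition) and Benjamini-Hochberg adjustment over all of them. An adjusted p below 0.05 called 50 genes (2.97%) lower and 42 (2.5%) higher with E2, and the calcium-handling genes had 0 of 10 in each direction. With a raw p not above 0.05, the cutoff without adjustment, 3 of the 10 genes were lower (Casq1, Asph and Jph1) and 0 higher, where 15.1% of all genes tested were lower and 10.5% higher. With limma-voom, the exact test of edgeR or DESeq2, the adjusted p likewise called 0 of the 10 genes. The median log2 fold change of the 10 genes was -0.76, and that of all genes tested was 0.01. An exact permutation test on 1 value per library can reach a p of 0.1 at best with groups of 3.

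**Figure D2:**
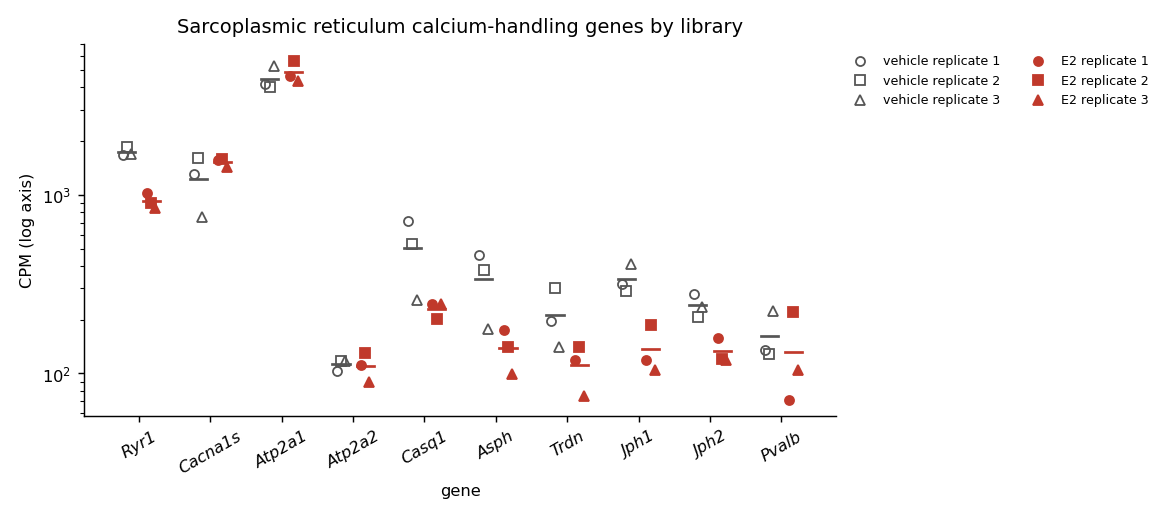
Level of each calcium-handling gene in CPM (log axis) in the 3 vehicle libraries (open symbols) and the 3 E2 libraries (filled symbols), with lines at the group means. For Ryr1, Jph1 and Jph2 the groups stand clearly apart, whereas for Casq1, Asph and Trdn vehicle replicate 3 lies close to the E2 libraries.

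Ryr1 (ENSMUSG00000030592.18, minus strand of chromosome 7 of mm10, 29003344 to 29125179) encodes the calcium release channel of the sarcoplasmic reticulum. It had 483, 834 and 144 counts in vehicle replicates 1, 2 and 3 and 130, 178 and 169 in E2 replicates 1, 2 and 3. These correspond to 1672, 1849 and 1698 CPM with vehicle and to 1032, 897 and 841 CPM with E2. Every E2 library lay below every vehicle library, and vehicle replicate 3 stood with the other two vehicle libraries. The means were 1740 ± 95.6 CPM with vehicle and 923 ± 98.5 CPM with E2 (SD, n = 3 each). The log2 fold change of E2 against vehicle was -0.78 ± 0.43 (standard error, SE), with a Benjamini-Hochberg (BH) adjusted p of 0.263 by edgeR's quasi-likelihood method.

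Cacna1s (chromosome 1, 136052750 to 136119822, plus strand) encodes the pore-forming subunit of the dihydropyridine receptor, which faces the release channel. Its levels were 1316, 1612 and 755 CPM with vehicle and 1572, 1587 and 1443 CPM with E2. The E2 libraries lay inside the range of the vehicle libraries, in which vehicle replicate 3 was lowest with 64 counts (95% Poisson interval 581 to 963 CPM). On the TMM scale, by contrast, all E2 libraries were above all vehicle libraries, the closest being 1652 against 1650 (11.2% of all genes had this order). E2 against vehicle gave a log2 fold change of 0.46 ± 0.45 (SE, BH-adjusted p = 0.552, edgeR quasi-likelihood). The channel and its voltage sensor therefore had fitted differences of opposite sign, neither past the threshold, and the difference between them was not tested.

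Atp2a1 (chromosome 7, 126445858 to 126463108, minus strand) encodes SERCA1, the calcium pump of fast fibers, and was the most abundant of the 10 genes. It had 4158, 4042 and 5270 CPM with vehicle and 4622, 5636 and 4358 CPM with E2. The groups overlapped (log2 fold change 0.24 ± 0.42, SE, BH-adjusted p = 0.775, edgeR quasi-likelihood). Atp2a2 (chromosome 5, 122453513 to 122502225, minus strand) encodes SERCA2, the pump of slow fibers and heart and, in another splice form, of most other cells. It had 30, 53 and 10 counts with vehicle and 14, 26 and 18 with E2, which is 104, 118 and 118 CPM against 111, 131 and 89.5 CPM. Its log2 fold change was 0.10 ± 0.42 (SE, BH-adjusted p = 0.904, edgeR quasi-likelihood), and the sign turned in 3 of 16 alternative settings, one being library totals as the only scaling (-0.03).

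Atp2a1 made up nearly all counts of the SERCA pair, a ratio that needs no scaling between libraries. With vehicle it took 97.6%, 97.2% and 97.8% of the pair's counts and with E2 97.7%, 97.7% and 98.0%, the lowest and highest exact binomial 95% limits being 96.0% and 98.9%. The means differed by 0.272 percentage points (exact permutation test, two-sided, p = 0.3). All 6 libraries thus lay within 1 percentage point of each other.

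Casq1 (chromosome 1, 172209894 to 172219868, minus strand) encodes the calsequestrin of fast fibers, the main calcium-binding protein inside the store. Its counts were 207, 241 and 22 with vehicle and 31, 40 and 49 with E2. On the CPM scale the vehicle libraries had 717, 534 and 259 and the E2 libraries 246, 201 and 244. The 3 E2 libraries agreed closely and lay below the vehicle range, but vehicle replicate 3 was only just above them, and on the TMM scale the groups overlapped. The fitted log2 fold change was -1.0 ± 0.47 (SE, BH-adjusted p = 0.191, edgeR quasi-likelihood). The heart and slow-fiber form Casq2 had 5 counts in all, every one in vehicle replicates 1 and 2, so that Casq1 took 98.4% to 100% of the calsequestrin pair in each library.

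Asph (ENSMUSG00000028207.18, chromosome 4, 9448069 to 9669344, minus strand) makes the aspartate beta-hydroxylase of the endoplasmic reticulum in many cell types, and from the same locus junctin and junctate, which share its membrane anchor. The annotation holds 15 protein-coding transcripts, with coding lengths from 220 to 2223 bases, and the counts are per gene, so the enzyme and junctin cannot be separated here. Asph had 133, 171 and 15 counts with vehicle and 22, 28 and 20 with E2. Its levels were 460, 379 and 177 CPM against 175, 141 and 99.5 CPM. Vehicle replicate 3 and E2 replicate 1 were nearly equal, and on the TMM scale the groups overlapped. With a log2 fold change of -1.21 ± 0.47 (SE, BH-adjusted p = 0.118, edgeR quasi-likelihood), Asph had the lowest fitted value of the 10 genes.

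Trdn (chromosome 10, 33080554 to 33476709, plus strand) encodes triadin, which with junctin links calsequestrin to the release channel. It had 57, 135 and 12 counts with vehicle and 15, 28 and 15 with E2. The vehicle libraries stood at 197, 299 and 141 CPM and the E2 libraries at 119, 141 and 74.6 CPM. No E2 library exceeded a vehicle library, but the closest pair, vehicle replicate 3 and E2 replicate 2, differed by less than 1 count. On the log2 scale the fitted difference was -0.85 ± 0.44 (SE, BH-adjusted p = 0.231, edgeR quasi-likelihood). With 12 counts, vehicle replicate 3 has a 95% Poisson interval of 73.1 to 247 CPM, which covers counting error only and holds all 3 E2 values.

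Jph1 (chromosome 1, 16964560 to 17097889, minus strand) encodes junctophilin 1, the main tether of the triad in skeletal muscle. Its counts were 92, 130 and 35 with vehicle and 15, 37 and 21 with E2, and its levels were 319, 288 and 413 CPM against 119, 186 and 104 CPM. The groups were separated on both scales, and vehicle replicate 3 was the highest library of all. E2 against vehicle gave a log2 fold change of -1.19 ± 0.44 (SE, BH-adjusted p = 0.103, edgeR quasi-likelihood), and this adjusted p was the smallest among the 10 genes. Jph2 (chromosome 2, 163336242 to 163397993, minus strand) encodes junctophilin 2, which is shared with the heart. It had 81, 93 and 20 counts with vehicle and 20, 24 and 24 with E2, that is 280, 206 and 236 CPM against 159, 121 and 119 CPM. Its groups did not overlap on either scale (log2 fold change -0.73 ± 0.44, SE, BH-adjusted p = 0.296, edgeR quasi-likelihood).

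Jph1 took 53.2%, 58.3% and 63.6% of the counts of the junctophilin pair with vehicle and 42.9%, 60.7% and 46.7% with E2. The groups overlapped, and the means of 58.4 ± 5.23% and 50.1 ± 9.37% (SD, n = 3 each) differed with a p of 0.3 in a two-sided exact permutation test. The exact binomial 95% interval of E2 replicate 1 alone reached from 26.3% to 60.6%.

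Pvalb (chromosome 15, 78191114 to 78206400, minus strand) encodes parvalbumin, the cytosolic calcium buffer of fast fibers. It had 39, 58 and 19 counts with vehicle and 9, 44 and 21 with E2. At 135, 129 and 224 CPM against 71.5, 222 and 104 CPM, the spread within each group was larger than the difference between the means. The fitted log2 fold change was -0.12 ± 0.48 (SE, BH-adjusted p = 0.896, edgeR quasi-likelihood), and it turned positive with vehicle replicate 3 left out (0.28).

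By order alone, all 3 E2 libraries were below all 3 vehicle libraries for 6 of the 10 genes in CPM (12.8% of all genes tested had this order). These were Ryr1, Casq1, Asph, Trdn, Jph1 and Jph2, and on the TMM scale the order held for Ryr1, Trdn, Jph1 and Jph2 (4 of 10, against 10.6% of all genes). In CPM, none of the 10 genes was higher in all E2 libraries (8.68% of all genes). With library totals as the only scaling, the median of all genes moved to -0.12, and 8 of the 10 fold changes were then below 0 instead of 7.

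**Figure D3:**
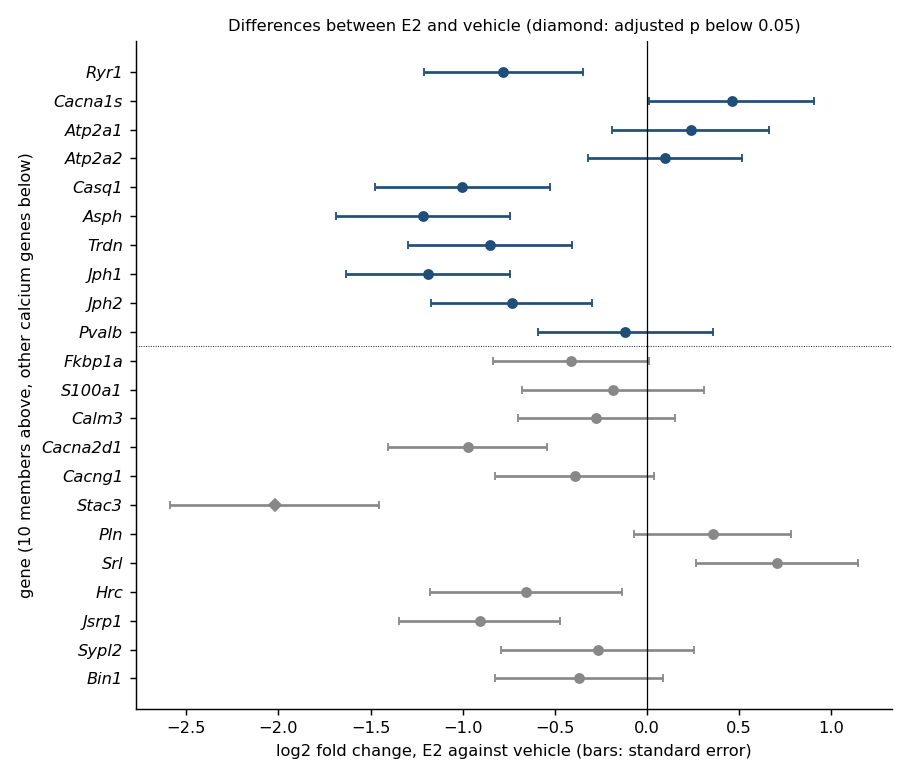
Log2 fold change of E2 against vehicle with its standard error, for the 10 calcium-handling genes (upper part) and other calcium genes with enough counts (lower part). Fold changes of the storage and junction genes lie between -1.21 and -0.73, those of the pumps at 0.10 and 0.24, and Stac3 (diamond) had an adjusted p below 0.05.

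Levels of different genes can be compared only per length, here as CPM per 1000 bases of annotated exons. In the vehicle libraries Atp2a1 led with 1291 ± 195 CPM per kb, followed by Casq1 (258 ± 118), Cacna1s (187 ± 66.5) and Pvalb (156 ± 51.2, SD, n = 3 each). The ranges of these last 3 genes overlapped, so they are not ordered among themselves. Ryr1 (79.7 ± 4.38), Jph1 (68.0 ± 12.98) and Jph2 (56.6 ± 8.78 CPM per kb) formed a lower tier in which neighbours overlapped. Trdn, Asph and Atp2a2 came last with 22.7, 21.0 and 18.6 CPM per kb. The exon length is that of all annotated transcripts of a gene together, so for Asph and Trdn, which have many, the value per kb does not describe any one transcript. With E2, Atp2a1 stayed first at 1401 ± 194 CPM per kb, followed by Cacna1s (234 ± 12.1), Pvalb (127 ± 75.8) and Casq1 (118 ± 12.9), where the range of Casq1 lay inside that of Pvalb.

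A ratio of counts within 1 library does not depend on how libraries are scaled, and was computed for each gene against Atp2a1 after the values had been seen. Ryr1 had 40.2, 45.7 and 32.2 counts per 100 Atp2a1 counts with vehicle and 22.3, 15.9 and 19.3 with E2. For Jph1 the ratios were 7.66, 7.13 and 7.83 against 2.58, 3.31 and 2.40, and for Jph2 they were 6.74, 5.10 and 4.47 against 3.44, 2.14 and 2.74. In these genes and in Trdn (4.75, 7.41 and 2.68 against 2.58, 2.5 and 1.71) all E2 libraries were below all vehicle libraries, which is 4 of 9 genes, where 13.6% of all genes tested had this order. Each comparison had a p of 0.1 in the two-sided exact permutation test, the smallest that 3 against 3 allows. Casq1 (17.2, 13.2 and 4.92 against 5.33, 3.57 and 5.59) and Asph (11.1, 9.38 and 3.36 against 3.78, 2.5 and 2.28) overlapped, vehicle replicate 3 being low in both. The ratios of Cacna1s, Atp2a2 and Pvalb overlapped as well.

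**Figure D4:**
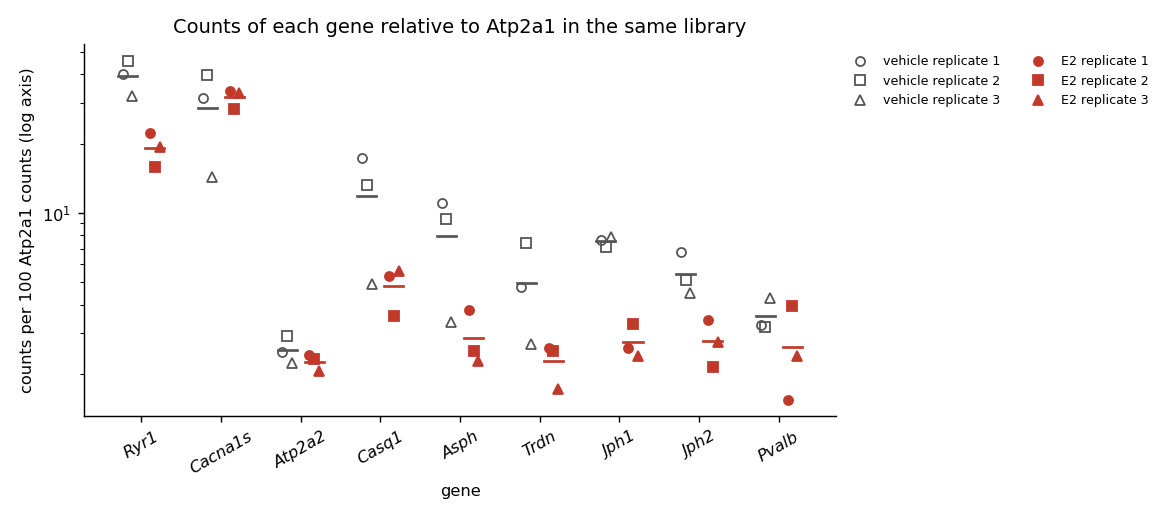
Counts of each gene per 100 counts of Atp2a1 in the same library (log axis), with vehicle libraries as open and E2 libraries as filled symbols and lines at the group means. Jph1 lies between 7.13 and 7.83 in the vehicle libraries and between 2.40 and 3.31 in the E2 libraries.

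The 10 genes were also set against the summed counts of the 18 fiber markers in the same library. Here the 6 genes Ryr1, Casq1, Asph, Trdn, Jph1 and Jph2 were lower in all E2 libraries than in all vehicle libraries. Of all genes tested, 12.2% had this order. This denominator, too, was chosen after the values had been seen, and it depends strongly on the marker Tnnc2. Tnnc2 had 3846, 5318 and 1714 of the 32348, 39887 and 6158 fiber-marker counts with vehicle. With E2 it had 4225, 8843 and 5980 of 9886, 18633 and 14235. The order of the 6 genes is not shown for a sum without Tnnc2. Ryr1, for example, had 14.9, 20.9 and 23.4 counts per 1000 fiber-marker counts with vehicle and 13.1, 9.55 and 11.9 with E2 (exact permutation test, two-sided, p = 0.1). Casq1 had 6.40, 6.04 and 3.57 against 3.14, 2.15 and 3.44. The fiber markers themselves went in both directions. Of the 18, all tested, 13 had a fold change below 0 (49.7% of all genes tested). With a raw p not above 0.05, 3 were lower and 2 higher (15.1% and 10.5% of all genes). None was called at the adjusted p, and the median log2 fold change was -0.34. What part the amount of fiber RNA has in the results above was not tested.

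Leaving out single libraries moved the calls. Without vehicle replicate 3, 4 of the 10 genes passed the adjusted threshold (edgeR quasi-likelihood), all lower with E2, namely Asph (log2 fold change -1.39, adjusted p = 0.00160), Casq1 (-1.19, 0.00438), Jph1 (-0.90, 0.0230) and Trdn (-0.93, 0.0237). That fit called 526 of all 2162 genes tested lower (24.3%) and 477 higher. Without any other single library the number was 0 of 10. The count of 3 genes with a raw p not above 0.05 became 5 when vehicle replicate 3 was left out, and the share of all genes lower by this cutoff rose from 15.1% to 27.6%. It became 2 when vehicle replicate 2 was left out (9.75% of all genes), 1 for vehicle replicate 1 (8.2%) and likewise for E2 replicate 1 (11.7%), and 0 for E2 replicate 2 (9.18%) and for E2 replicate 3 (13.5%). In Casq1, Asph and Trdn, vehicle replicate 3 was the lowest vehicle library. With vehicle replicate 3 as the only vehicle library, whose spread is then assumed to equal that of the E2 libraries, Jph1 (-1.50), Ryr1 (-0.77) and Jph2 (-0.73) kept log2 fold changes of similar size, and Casq1 (-0.06), Asph (-0.28) and Trdn (-0.27) came close to 0. Cacna1s had a log2 fold change of 1.13 in that fit (BH-adjusted p = 0.481, edgeR quasi-likelihood), with a raw p not above 0.05, as had 7.08% of all genes in that direction. In the other direction Jph1 alone of the 10 genes met this cutoff, with 2.88% of all genes, and the median of all genes was 0.11. For Ryr1, Casq1, Asph, Trdn, Jph1 and Jph2 the adjusted p in that fit lay between 0.212 and 0.976.

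**Figure D5:**
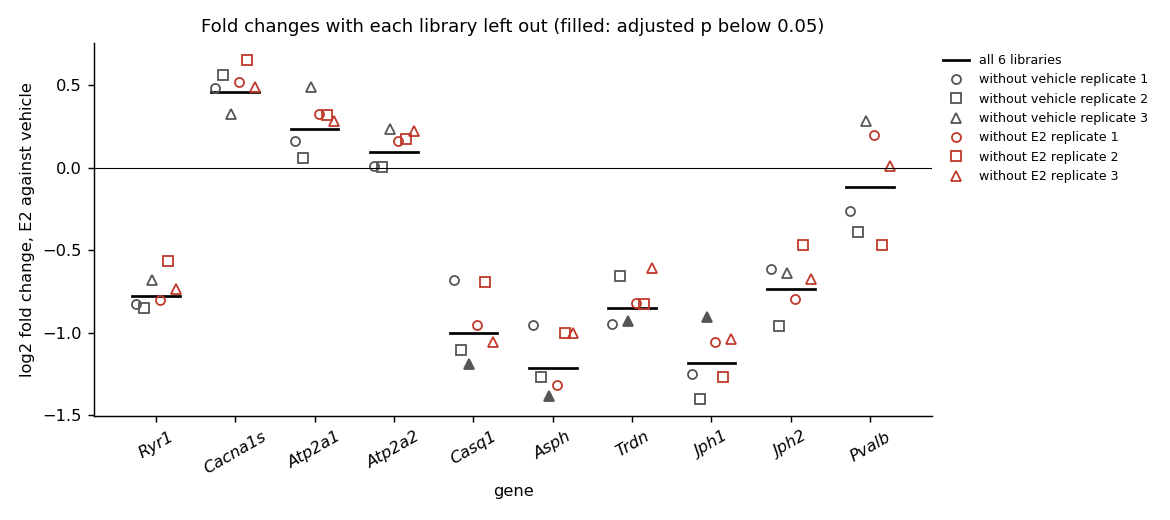
Log2 fold change of E2 against vehicle for each calcium-handling gene with all 6 libraries (line) and with each library left out in turn (symbols, filled where the adjusted p was below 0.05). Filled symbols occur only where vehicle replicate 3 was left out, for Casq1, Asph, Trdn and Jph1, and 6 of the 10 genes stay below 0 throughout.

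Of 30 further genes listed for calcium release, uptake and storage, 13 had enough counts to be tested, 11 of them with a fold change below 0 (49.7% of all genes), and their median log2 fold change was -0.39. Stac3, an adaptor needed for the voltage sensor to reach the membrane and couple to release, was lower at the adjusted p with all 6 libraries. It had 73, 78 and 4 counts with vehicle and 8, 5 and 6 with E2, which is 253, 173 and 47.2 CPM against 63.5, 25.2 and 29.8 CPM. Vehicle replicate 3 lay between the E2 libraries. On the log2 scale the fitted difference was -2.02 ± 0.57 (SE, BH-adjusted p = 0.0450, edgeR quasi-likelihood). The adjusted p was 0.000216 without vehicle replicate 3, between 0.0854 and 0.286 without any other library, 0.0955 with limma-voom and 0.969 with vehicle replicate 3 as the only vehicle library.

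The other subunits of the voltage sensor had lower means with E2 without passing the adjustment. Cacna2d1, the alpha2delta subunit, had 132, 109 and 130 CPM with vehicle and 55.6, 70.5 and 44.8 CPM with E2 (log2 fold change -0.97, BH-adjusted p = 0.161, edgeR quasi-likelihood). Cacng1, the gamma subunit, had 436, 346 and 295 against 278, 287 and 199 CPM (-0.39, adjusted p = 0.601). In both genes the groups did not overlap in CPM (12.8% of all genes tested had this order), but in Cacng1 the closest pair, vehicle replicate 3 and E2 replicate 2, differed by less than 1 count of vehicle replicate 3. The beta subunit Cacnb1 had 25 counts in all and was too low to be tested.

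Among the proteins of the store, Srl, which encodes sarcalumenin and is thought to assist the SERCA pump, went the other way. It had 599, 623 and 790 CPM with vehicle and 889, 1365 and 791 CPM with E2, the closest pair differing by about 1 CPM (log2 fold change 0.71, BH-adjusted p = 0.323, edgeR quasi-likelihood, and 0.0161 without vehicle replicate 3). Hrc, a histidine-rich calcium-binding protein of the lumen, had 523, 563 and 94.3 CPM against 230, 237 and 229 CPM, so that vehicle replicate 3 was the lowest of all libraries. Its log2 fold change of -0.66 became -0.97 without vehicle replicate 3 (adjusted p = 0.0112, edgeR quasi-likelihood) and 1.40 with that library as the only vehicle library. Jsrp1, which encodes the triad protein JP-45, had 177, 157 and 118 against 71.5, 70.5 and 79.6 CPM (-0.91, adjusted p = 0.196 with all libraries and 0.0353 without vehicle replicate 3). Such calls were common without vehicle replicate 3, where 526 of 2162 genes were called lower (24.3%) and 477 higher. The SERCA regulator Pln had a log2 fold change of 0.36, and Sln, its counterpart in skeletal muscle, had 0 counts in all 6 libraries, which allows up to 2.22 CPM over the libraries together.

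Fkbp1a, which makes the accessory protein FKBP12 of the release channel, had a log2 fold change of -0.41, and Calm3 (-0.28), S100a1 (-0.19), Bin1 (-0.37) and Sypl2 (-0.27) also had values below 0 without passing the adjusted threshold. Of the other release channels, the cardiac Ryr2 had 0 counts in all libraries and Ryr3 had 7, against 1938 for Ryr1.

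The start sites of 6 of the 10 genes (Ryr1, Cacna1s, Atp2a1, Casq1, Jph2 and Pvalb) have a window in the RefSeq promoter table (GRCm38.p6, the assembly of mm10). The 250 bases upstream of each start were searched on both strands. The E-box CAGCTG, a form bound by myogenic factors such as MyoD, was present in 4 of the 6 windows (Cacna1s, Atp2a1, Casq1 and Jph2), and 13% of 32817 upstream windows of all genes hold it. It is a special case of the general E-box CANNTG, which is found in 66.2% of all windows and in the same 4 genes. A MEF2 site, also typical of muscle genes, was present in Pvalb only, starting 180 bases upstream of the start (2.92% of all windows). The palindromic estrogen response element, an inverted repeat of GGTCA with 3 bases between, was in none of the 6 (0.064% of all windows), and its single arm GGTCA was in Ryr1, Atp2a1 and Jph2 (35.2% of all windows). A match says only that the letters are there. The 4 windows with CAGCTG are shown as the ones that hold this motif. Each is written 5′ to 3′ on the strand of its gene, with every CANNTG match in capitals.
Casq1, chr1:172219896-172220145, minus strand: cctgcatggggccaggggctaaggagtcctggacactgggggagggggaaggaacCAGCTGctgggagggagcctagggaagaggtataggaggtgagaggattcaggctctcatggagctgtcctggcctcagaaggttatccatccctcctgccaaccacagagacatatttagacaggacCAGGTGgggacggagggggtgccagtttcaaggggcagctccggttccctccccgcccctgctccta
Jph2, chr2:163397994-163398243, minus strand: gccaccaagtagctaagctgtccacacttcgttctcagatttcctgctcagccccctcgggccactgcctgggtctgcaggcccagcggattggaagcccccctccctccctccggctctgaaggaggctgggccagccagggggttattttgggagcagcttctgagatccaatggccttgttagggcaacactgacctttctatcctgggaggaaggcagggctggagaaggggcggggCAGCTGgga
Atp2a1, chr7:126463074-126463323, minus strand: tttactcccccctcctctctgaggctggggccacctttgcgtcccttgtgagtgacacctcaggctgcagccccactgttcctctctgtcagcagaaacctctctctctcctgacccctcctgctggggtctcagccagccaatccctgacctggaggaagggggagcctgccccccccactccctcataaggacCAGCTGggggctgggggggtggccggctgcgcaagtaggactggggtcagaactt
Cacna1s, chr1:136052561-136052810, plus strand: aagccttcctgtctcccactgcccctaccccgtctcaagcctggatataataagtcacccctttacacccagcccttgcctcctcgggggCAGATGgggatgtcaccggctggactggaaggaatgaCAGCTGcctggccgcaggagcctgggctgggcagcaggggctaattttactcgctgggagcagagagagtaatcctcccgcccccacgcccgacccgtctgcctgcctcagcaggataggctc
In Jph2 the CAGCTG match lies closest to the start, at 9 bases upstream, in Atp2a1 at 55, in Cacna1s at 123 and in Casq1 at 195 bases, counted from the first base of the match.

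No source used here states whether counting was stranded, and 6 of the 10 genes have 50 or more exon bases in common with an annotated gene on the opposite strand. For 2 of them the partner is itself in the count table. Exons of Rabep2 cover 763 bases (21.9%) of those of Atp2a1, and exons of Clvs1 cover 2302 bases (14.3%) of those of Asph. Rabep2 had 242 counts in all libraries and Clvs1 had 195, against 6048 for Atp2a1 and 389 for Asph. Clvs1 had 170, 155 and 118 CPM with vehicle and 135, 196 and 49.7 CPM with E2, and its groups overlapped. In Ryr1, Cacna1s, Atp2a2 and Casq1 the opposite-strand exons belong to genes that are not in the table and cover 0.229% to 20.0% of the exon bases. Without strand, reads of such partners cannot be told apart from those of the calcium-handling genes where the exons coincide. Trdn, Jph1, Jph2 and Pvalb had no such overlap of 50 bases or more.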

How the data were processed

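TRAPseq libraries from gastrocnemius and soleus of vehicle- and E2-treated mice were grouped by their sample labels, 3 per group. The deposited values are counts per gene symbol, without normalization: the submitters' processing notes name bcl2fastq 2.17, FastQC 0.11.2, STAR 2.5.3a with the mm10 build, and Subread 1.6.0, whose featureCounts the authors used for counting. The strand setting is unstated. Labels name a stranded total RNA kit, the study's methods a ribosome profiling kit.

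E2 and vehicle were compared in R 4.3.3 by edgeR 4.0.16 (filterByExpr, TMM, quasi-likelihood test, Benjamini-Hochberg adjustment) over 1682 genes. Standard errors were derived from the fold change and the F statistic. Positions and exons are from GENCODE M21 (mm10), which matched 22750 symbols, and promoters from RefSeq. Alternatives were an unfiltered table, a minimum of 10 counts per library, RLE, library totals, no Rn45s, DESeq2 (1.42.0), limma-voom (3.58.1), edgeR's exact test, a replicate block and libraries left out. Fits were tested on simulated data. Every pair of libraries differed by more than counting noise (chi-square over its degrees of freedom at least 2.89). Totals of 84823 to 451034 counts limit precision, and intervals cover counting error only.

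One gene tested in the second list is counted but not reported here by name. Genes named are the 10 members, opposite-strand partners with shared exons and tested genes of the second list, besides marker genes and untested calcium genes where a result needed them. Members and lists were chosen with earlier results of these data known. The ratios to Atp2a1 and to fiber markers and the Casq1 share were chosen after their values were seen.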

Additional observations from a re-analysis of the deposited data

How the results depend on the processing

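Of all genes tested, the number called lower (50) became 132 without a filter, 0 with at least 10 counts in every library (89 of 578 with a raw p not above 0.05, edgeR quasi-likelihood), 80 with library totals, 9 with limma-voom, 107 with edgeR's exact test and 1 without vehicle replicates 1 and 2. The number called higher (42) became 11 with at least 10 counts, 76 with the exact test and 6 without vehicle replicates 1 and 2. With single libraries left out, between 2 (without E2 replicate 2) and 526 (without vehicle replicate 3) were lower and between 6 and 477 (without vehicle replicate 3) higher, and without any library other than vehicle replicate 3 at most 11 were lower and 15 higher. Of the 10 calcium-handling genes, between 0 and 4 were then called lower, and between 0 and 5 had a raw p not above 0.05, which became 6 of 9 tested with at least 10 counts (15.4% of all genes) and 1 without vehicle replicates 1 and 2 (2.88%), where the median log2 fold change was -0.27. Of the other calcium genes, between 0 and 4 were lower and between 0 and 1 higher with single libraries left out, 0 were lower with at least 10 counts, with limma-voom or without vehicle replicates 1 and 2, and the median was -0.83 without a filter, when 28 genes were included.

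With the replicate number as a block, 1 gene was called lower and 7 higher, and of the other calcium genes 0 were lower (Stac3 adjusted p = 0.137, edgeR quasi-likelihood). Libraries with the same number did not deviate together from their group means (r of -0.13, 0.02 and -0.19 across genes). In these deviations no vehicle library correlated best with its own number, so the numbers were not taken as pairs.

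Signs turned for Atp2a1 (-0.0165) and Atp2a2 (-0.00230) without vehicle replicates 1 and 2, for Atp2a2 with at least 10 counts (-0.14) and library totals (-0.0276), and for Pvalb without vehicle replicate 3, E2 replicate 1 or E2 replicate 3 (0.28, 0.20 and 0.01, lowest -0.47 with other single libraries left out). They also turned for S100a1 without vehicle replicate 1 or E2 replicate 1 (0.15 and 0.000167, lowest -0.43), for Sypl2 without vehicle replicate 3 or E2 replicate 1 (0.10 and 0.05, lowest -0.65), and without vehicle replicates 1 and 2 for Calm3 (0.18) and Hrc (1.40). The causes were not tested. Ryr1, Casq1, Asph, Trdn, Jph1 and Jph2 kept a log2 fold change below 0 in all 16 alternatives.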

Other observations

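Some of the calcium genes that serve cells other than muscle fibers as well were low. The inositol trisphosphate receptors Itpr1, Itpr2 and Itpr3, the release channels of non-excitable cells, had 40, 47 and 24 counts in all libraries together, too few to be tested. Itpr2 had 34.6, 48.8 and 47.2 CPM with vehicle and 7.94, 15.1 and 34.8 CPM with E2, the highest E2 library standing just above the lowest vehicle library. Stim1, the sensor of an empty store, had 41.5, 55.4 and 58.9 CPM against 31.8, 20.1 and 24.9 CPM, on 55 counts in all. Its groups did not overlap in CPM, an order that 12.8% of all genes tested had. Vehicle replicate 3 and E2 replicate 3 had 5 counts each, so their distance comes from depth scaling alone. Its channel Orai1 had 4 counts. The plasma membrane pumps Atp2b1 and Atp2b4 had 79 and 52 counts, and Atp2a3, the SERCA3 pump found in endothelium and blood cells, had 11. With all 6 libraries, all of these genes were below the minimum for testing.

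Rabep2, which shares exon bases with Atp2a1 on the opposite strand, had 166, 124 and 342 CPM in the vehicle libraries and 318, 242 and 104 CPM in the E2 libraries, with no common order of the groups.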
